A study of Mus musculus with 9 samples.

Results

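The genes described here are 10 members of the circadian clock, Arntl, Clock, Per1, Per2, Per3, Cry1, Cry2, Nr1d1, Nr1d2 and Dbp, out of 27962 gene names on the array. They are named members of the clock, picked with earlier results of these data known, and every probe carrying 1 of these names was kept, which gave 18 of the 41174 probes. Clock had 4 probes, Nr1d1 had 3, Per2, Cry1 and Cry2 had 2 each, and the remaining genes had 1 each.

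The mammalian clock is a feedback loop of transcription that turns once a day in nearly every tissue. CLOCK and BMAL1, the product of Arntl, bind E-box sequences and switch on the Per and Cry genes, and the PER and CRY proteins then hold CLOCK and BMAL1 back. CLOCK and BMAL1 also drive Nr1d1 and Nr1d2, which encode the nuclear receptors REV-ERBα and REV-ERBβ that repress Arntl through RORE sequences, and Dbp, a factor that acts on D-box sequences in output genes. In mouse tissues Arntl therefore peaks at a phase roughly opposite to that of Dbp, Nr1d1 and the Per genes, so that a single sample carries information on clock phase in the ratio of these transcripts.

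Mammary glands of 9 dams on lactation day 2 (L2) were measured, 4 from wild type (WT) mice and 5 from hNAG-1 mice, which carry a transgene for human NAG-1, a ligand of the TGFβ superfamily. The strain background given for both genotypes was C57BL/7, spelled as in the labels. Per the methods of the study, the transgene was expressed ubiquitously, some experiments of the study combined animals of both transgenic lines, and gland number 4 was taken from dams at the end of a continuous breeding study. Each array held the Cy3-labelled RNA of 1 gland, and no RNA was pooled. The animals lived in a light and dark cycle, but the hour at which each gland was removed is not given in the sources used here. A difference in collection time and a difference in clock level therefore cannot be told apart in these data.

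Values are scaled intensities, the background-subtracted and scanner-processed spot signal of each array brought to a common 75th percentile. They compare 1 probe between arrays and say nothing of one gene's level against another's. The glands contained many cell types, and in such bulk tissue fewer cells of a type and less RNA per cell cannot be told apart. The 9 luminal epithelium markers, among them the milk protein genes Csn2, Wap and Lalba, were well above background on all 9 arrays. Lymphocyte markers stood farthest apart on 1 array. Their summed intensity was 34957 in WT 2, then 5622 in WT 1 and 5601 in hNAG-1 4, and 910 to 2105 in the rest. The luminal epithelium markers were also lowest in WT 2, with a mean log2 deviation of -0.51 against -0.058 to 0.30 in the others. Macrophage markers were highest in hNAG-1 4, with a mean log2 deviation of 0.89 against -0.81 to 0.39 in the others. The arrays came from 3 slides: WT 1 alone on slide 1, hNAG-1 1 to 4 on slide 2, and WT 2, WT 3, WT 4 and hNAG-1 5 on slide 3. Slide 3 was the only slide with both genotypes, so slide and genotype were largely confounded. Between 59.8 and 76.1% of the spots on an array were well above background.

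The promoter sequences of 4 genes are shown because they hold, within the window searched, the elements by which the loop is known to be wired. Sequences of 300 bases, 250 before and 50 after each annotated start site, came from RefSeq on build GRCm38.p6 and held 13 entries for 9 of the 10 genes, all except Per2. These motifs were searched on both strands: the E-box CACGTG, which 7.15% of all 32851 promoters of that length held, the D-box TTATGNAA, held by 3.38%, and the RORE TAGGTCA, held by 2.61%. Capitals mark the motifs, and each stretch is written 5′ to 3′ on the strand of the gene.
Arntl, RORE, chr7:113207531-113207558, plus strand: aggcagaaagTAGGTCAgggacggaggt
Cry1, E-box, chr10:85185097-85185126, minus strand: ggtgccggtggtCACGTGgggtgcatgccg
Per1, E-box then D-box, chr11:69098771-69098944, plus strand: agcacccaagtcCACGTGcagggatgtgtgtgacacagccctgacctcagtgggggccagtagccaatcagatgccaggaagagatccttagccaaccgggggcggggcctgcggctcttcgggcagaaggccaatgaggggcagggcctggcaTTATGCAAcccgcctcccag
Per3, a pair of D-boxes, chr4:151044804-151044882, minus strand: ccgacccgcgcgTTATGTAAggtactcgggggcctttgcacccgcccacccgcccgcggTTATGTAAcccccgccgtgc
The E-box therefore appeared in 2 of the 9 genes, the D-box in 2 and the RORE in 1. A match describes the letters in the window, and the absence of one in Dbp, Nr1d1, Nr1d2, Cry2 or Clock says only that these letters were not found in these 300 bases.

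All but 3 of the 18 probes were well above background on all 9 arrays, and no spot of any of them was saturated. The exceptions were the Clock probe A_52_P161365, above background on 1 of 4 WT and 0 of 5 hNAG-1 arrays, the Cry2 probe A_51_P135542, on 2 of 4 and 3 of 5, and the only Per3 probe, on 4 of 4 and 4 of 5. Where a gene had several probes, the brightest stands for the gene below unless another is named. The plot of the 10 genes by array shows the spread within each genotype.

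**Figure D1:**
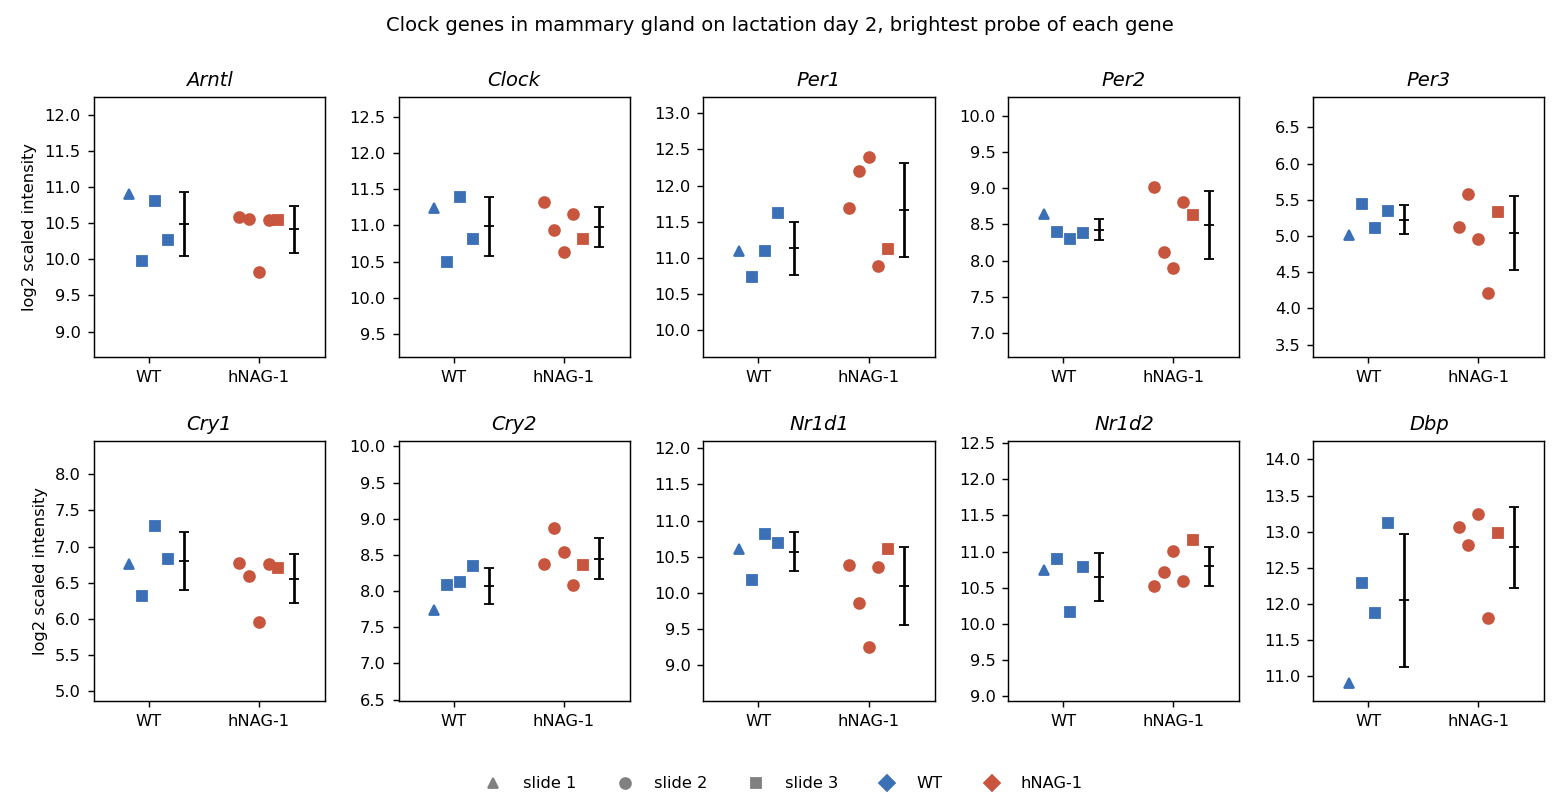
Scaled intensity (log2) of the brightest probe of each of the 10 clock genes in 4 WT and 5 hNAG-1 glands, with 1 point per array and the symbol giving the slide. The bar beside each group is its mean ± SD of the log2 values. Every axis spans the same log2 range, and the WT and hNAG-1 points overlap for all 10 genes.

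In the genotype comparison, 1 of the 18 probes passed an unadjusted limma p of 0.05, and it was higher in hNAG-1. That share, 5.56%, lay next to the 5.6% of all 41174 probes that did so, of which 1.15% of all probes were higher and 4.45% lower. That balance turned under other settings, from 473 probes higher and 1834 lower to 2846 and 288 in the fit that blocked on slide, 2550 and 1058 after scaling to the median and 1506 and 1113 after quantile normalization. No clock probe passed after Benjamini-Hochberg adjustment over all probes by limma, the lowest adjusted p being 0.661, and 1 probe of the whole array did (0.00243%). The count over the array was 138 with slide as a block and 215 without hNAG-1 5, and no clock probe was among them. The genotypes did not overlap for 1 of the 18 probes, the same probe, against 1.35% of all probes. It was also the 1 probe that met the criteria of the study's methods of p, fold change and intensity, which 2.25% of all probes met. The median log2 difference, hNAG-1 minus WT, was 0.077 over the 18 probes, 0.025 over the 10 genes and -0.018 over all probes. In the fit with slide as a block, given below beside some genes, the median of all probes was itself 0.19. Log2 differences were above 0 for 10 of the 18 probes and for 5 of the 10 genes. The standard errors of single probes ran from 0.16 to 0.44, and with 4 and 5 arrays the smallest p an exact permutation test could give was 0.00794.

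**Figure D2:**
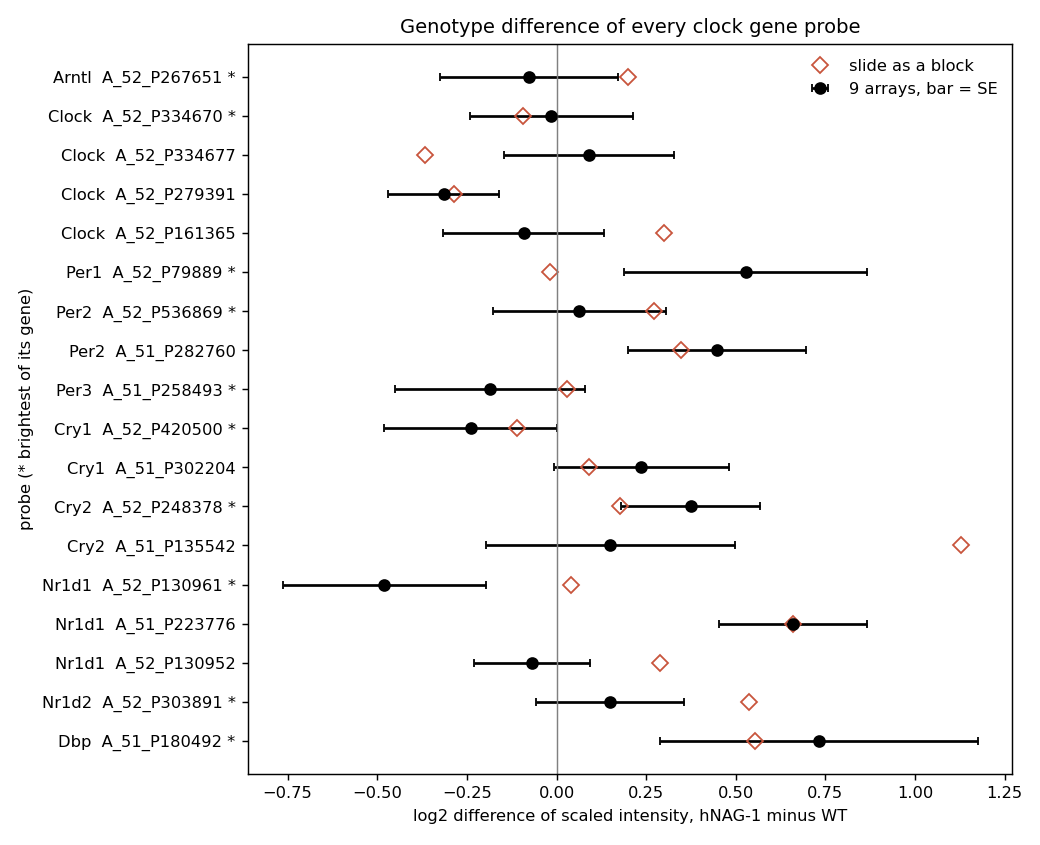
Log2 difference of scaled intensity, hNAG-1 minus WT, for each of the 18 clock gene probes. Black points give the comparison of 9 arrays with its SE. Open diamonds give the difference with slide as a block, which rests on slide 3 and its single hNAG-1 gland. A_51_P223776 of Nr1d1 lay at 0.66 in both, whereas Per1 moved from 0.53 to -0.019.

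Arntl and Clock, which encode the activating pair, had like levels in both genotypes. Arntl (A_52_P267651, chr7:109229489-109229548 on build mm7) measured 1914 in WT 1, 1009 in WT 2, 1791 in WT 3 and 1230 in WT 4, and 1539, 1504, 908, 1493 and 1497 in hNAG-1 1 to 5. Thus 4 hNAG-1 glands lay close together, hNAG-1 3 lay far below them, and the WT glands spread from 1009 to 1914. The means were 1486 ± 435 (SD, n = 4) and 1388 ± 269 (SD, n = 5), a log2 difference of -0.076 (SE 0.25) with an exact two-sided permutation p of 0.754. It was 0.20 with slide as a block, and it turned positive without WT 1, WT 3 or hNAG-1 3 as well.

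Clock (A_52_P334670, chr5:76144675-76144734) measured 2418, 1444, 2689 and 1799 in WT 1 to 4, and 2569, 1952, 1586, 2286 and 1792 in hNAG-1 1 to 5. The lowest value was again in WT 2 and the next in hNAG-1 3, as for Arntl in the opposite order. The log2 difference was -0.014 (SE 0.23), against SDs of the log2 values of 0.41 in WT and 0.28 in hNAG-1. Of the other Clock probes, A_52_P334677 lay 396 bases upstream and followed the brightest probe over the arrays (r = 0.82, a description over 9 arrays). A_52_P279391, 23201 bases upstream and assigned to the cDNA AK030352, was lower in hNAG-1, with 112 to 139 in WT and 93.0, 94.6, 98.4, 105 and 133 in hNAG-1. Only hNAG-1 1 lay within the WT range there, and the log2 difference was -0.31 (SE 0.16), with an exact permutation p of 0.0476 and a limma p adjusted over all probes of 0.661.

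The Per genes encode the repressors of the negative limb, and Per1 is also induced acutely by glucocorticoids and other signals. Per1 (A_52_P79889, chr11:69190950-69191009) measured 2193, 1700, 2180 and 3142 in WT 1 to 4, and 3316, 4728, 5370, 1897 and 2237 in hNAG-1 1 to 5. A set of 3 hNAG-1 glands, all on slide 2, exceeded every WT gland, and the other 2 lay among the WT glands. The log2 difference was 0.53 (SE 0.34; exact permutation p = 0.183). It was -0.019 with slide as a block, and within slide 3 the hNAG-1 gland lay between WT 3 and WT 4. Per1 levels also ran against those of the lymphocyte markers, with r = -0.80 between Per1 and the mean of the 10 markers (exact permutation p = 0.00665, adjusted over the 50 relations of 5 marker lists with 10 genes 0.0832), rho = -0.88 (p = 0.00308, adjusted 0.0769), r = -0.90 without WT 1 and WT 2 and r = -0.75 with each slide centred. The part of the lymphocytes in the Per1 levels was not tested.

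The Per2 probes had different profiles over the arrays. The brighter one (A_52_P536869, chr1:91347406-91347465) measured 400, 335, 315 and 334 in WT 1 to 4 and 516, 279, 238, 448 and 396 in hNAG-1 1 to 5. The other (A_51_P282760, chr1:91323914-91323973), 23492 bases further downstream, measured 166, 214, 136 and 200 in WT and 255, 370, 235, 158 and 229 in hNAG-1. In hNAG-1 2 and hNAG-1 3, the glands with the most Per1, the first probe was at its lowest and the second was above every WT gland. The log2 differences were 0.064 (SE 0.24) and 0.45 (SE 0.25; exact permutation p = 0.119), and 0.27 and 0.35 with slide as a block. The difference between the probes was not tested. Over the 9 arrays the pair had r = -0.25. The downstream probe moved with Per1 (r = 0.67), Cry2 (r = 0.83) and Dbp (r = 0.65), whereas the brighter probe had r of -0.54, -0.46 and -0.27 with these genes. All are descriptions over the same 9 arrays. Per3 (A_51_P258493, chr4:149994689-149994748) was dim, from 18.6 in hNAG-1 4, where it was not well above background, to 47.6 in hNAG-1 2, with a log2 difference of -0.19 (SE 0.26).

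Cry1 and Cry2 encode the cryptochromes, partners of the PER proteins. Cry1 (A_52_P420500, chr10:84673350-84673409) measured 108, 79.6, 156 and 114 in WT 1 to 4 and 109, 96.6, 62.4, 109 and 104 in hNAG-1 1 to 5. WT 2 and hNAG-1 3 were the lowest in their genotypes, as for Arntl. The log2 difference was -0.24 (SE 0.24), and that of its second probe, 11764 bases upstream, was 0.24 (SE 0.24). The first was -0.075 without WT 3 and -0.091 without hNAG-1 3. Cry2 (A_52_P248378, chr2:92254922-92254981) measured 213, 271, 278 and 325 in WT and 332, 466, 370, 272 and 329 in hNAG-1. All hNAG-1 glands but hNAG-1 4 exceeded every WT gland. The means were 272 ± 46.0 (SD, n = 4) and 354 ± 71.9 (SD, n = 5), a log2 difference of 0.37 (SE 0.19; exact permutation p = 0.0556; limma adjusted p 0.661), and 0.18 with slide as a block. The dim second probe of Cry2 had a log2 difference of 0.15, and of 1.13 with slide as a block, where it was the only clock probe among the 7.61% of all probes with an unadjusted p below 0.05. That value came from 59.4 in hNAG-1 5 against 19.9 to 35.7 in the WT glands of slide 3.

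Nr1d1 held the probe that separated the genotypes. A_51_P223776 (chr11:98878251-98878753, spanning 503 bases of genome and therefore an intron) measured 333, 192, 334 and 364 in WT 1 to 4 and 504, 487, 504, 407 and 452 in hNAG-1 1 to 5. Every hNAG-1 gland exceeded every WT gland. The means were 306 ± 77.4 (SD, n = 4) and 471 ± 41.3 (SD, n = 5), a 1.58-fold ratio of geometric means. The log2 difference was 0.66 (SE 0.21), with an exact permutation p of 0.00794, the smallest possible here, an unadjusted limma p of 0.0102 and a limma p adjusted over all probes of 0.661. The log2 difference was also 0.66 with slide as a block, a value that rests on hNAG-1 5 as the single hNAG-1 gland of slide 3. It did not pass an unadjusted limma p of 0.05 there. Without WT 2 it was 0.45, and it did pass. Under the 22 alternative settings that bear on a single probe it ran from 0.45 to 0.87 and kept an unadjusted p under 0.05 in 19.

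The other Nr1d1 probes did not follow. The brightest (A_52_P130961, chr11:98884160-98884219), 5909 bases upstream of A_51_P223776, is assigned to the cDNA AK146430 and measured 1559, 1162, 1800 and 1647 in WT and 1338, 930, 611, 1310 and 1554 in hNAG-1. It was lower in hNAG-1 by mean, 1149 ± 375 (SD, n = 5) against 1542 ± 272 (SD, n = 4), but the groups overlapped (log2 difference -0.48, SE 0.28, exact permutation p = 0.151). Its difference was 0.041 with slide as a block and -0.27 without hNAG-1 3. The third probe, A_52_P130952, lay between them on the genome and ranged only from 91.5 to 133 (log2 difference -0.068, SE 0.16). Over the 9 arrays the brightest and the third probe had r = 0.69, while the brightest and A_51_P223776 had r = -0.30. Which transcripts of Nr1d1 each probe detects was not tested. The plot of the Nr1d1 and Per2 probes shows the opposed profiles.

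**Figure D3:**
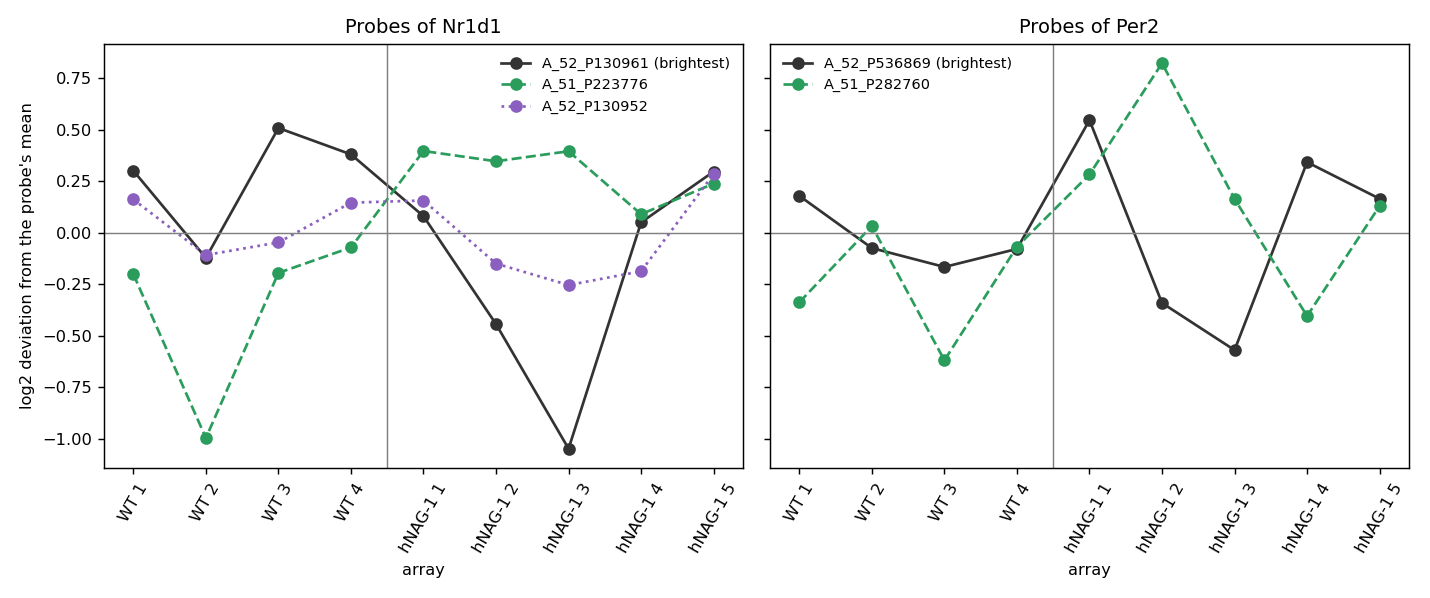
Log2 deviation of each probe of Nr1d1 (left) and Per2 (right) from its own mean over the 9 arrays, by array, with WT left and hNAG-1 right of the vertical line. In hNAG-1 3 the brightest Nr1d1 probe was at its lowest, 611, while A_51_P223776 stood at 504, and in hNAG-1 2 and 3 the Per2 probes lay on opposite sides of their means.

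Nr1d2, the paralogue of Nr1d1 with a like role, measured (A_52_P303891, chr14:16018965-16019024) 1718, 1914, 1143 and 1772 in WT 1 to 4 and 1476, 1678, 2060, 1542 and 2279 in hNAG-1 1 to 5. The lowest value was in WT 3, where Clock was highest. The log2 difference was 0.15 (SE 0.21; exact permutation p = 0.492), and 0.54 with slide as a block.

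Dbp, the output factor with the widest daily swing in many mouse tissues, varied most of the 10 genes. Its single probe (A_51_P180492, chr7:41886169-41886228) measured 1932, 4993, 3771 and 8921 in WT 1 to 4, and 8533, 7242, 9688, 3590 and 8093 in hNAG-1 1 to 5. The highest value was 5.01 times the lowest, and high and low glands occurred in both genotypes. The SD of log2 Dbp over the 9 arrays was 0.79, a size reached by 4.17% of the probes well above background on all arrays, whose median SD was 0.28. Per1 (SD 0.58) was also among the more variable, with 10.1% of those probes at or above it, while Arntl (SD 0.36), with 33.1%, was not. The genotype means of Dbp were 4904 ± 2959 (SD, n = 4) and 7429 ± 2320 (SD, n = 5), a log2 difference of 0.73 (SE 0.44) with an exact permutation p of 0.183. The difference was 0.55 with slide as a block, 0.35 without WT 1 and 1.09 without WT 4.

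The Dbp level also followed the adipocyte markers. Their mean log2 deviation was lowest in WT 1 (-1.02), the gland with the least Dbp, and lay from -0.27 to 0.38 in the other 8. Over the 9 arrays r was 0.87 (exact permutation p = 0.00441, adjusted over the 50 relations 0.0735) and rho was 0.67 (p = 0.0589, adjusted 0.327), with r = 0.77 without WT 1 and WT 2 and r = 0.69 with each slide centred. Cry2 gave r = 0.85 (exact permutation p = 0.00201, adjusted 0.0502) and rho = 0.83 (p = 0.00827, adjusted 0.138) with the same markers, and r = 0.79 without WT 1 and WT 2. Both genes were thus high in the glands with more adipocyte signal, and the part of the adipocytes in their levels was not tested. All 8 adipocyte markers had log2 differences above 0 (median 0.35, and 0.24 with slide as a block), and none passed an unadjusted limma p of 0.05. With each slide centred Cry2 kept r = 0.82. Of the 50 relations, 8 had an unadjusted p below 0.05 by Pearson's r and 0 an adjusted one, and by Spearman's rho these counts were 5 and 0. Of the 8, 5 were with the endothelial markers, whose mean was highest in hNAG-1 2 and hNAG-1 3. The largest r of the 50 was between the brightest Nr1d1 probe and the 5 endothelial markers (r = -0.91, exact permutation p = 0.00125, adjusted 0.0502, rho = -0.75, p = 0.0255, adjusted 0.319; r = -0.67 without hNAG-1 2 and hNAG-1 3). The same markers gave r = -0.78 with Per2, 0.74 with Per1, 0.74 with Cry2 and -0.69 with Cry1, and without those glands these were -0.33, -0.43, 0.16 and -0.60. Cry2 also ran against the lymphocyte markers, with the largest rho of the 50 (rho = -0.90, exact permutation p = 0.00203, adjusted 0.0769; r = -0.66, p = 0.0635, adjusted 0.341). By r over all 9 arrays Per1 and Cry2 thus went with more than 1 of the marker lists. Their relations with the endothelial markers rested on hNAG-1 2 and hNAG-1 3. By rho these were 0.27 for Per1 (exact permutation p = 0.493, adjusted 0.968) and 0.43 for Cry2 (p = 0.25, adjusted 0.735). The part of each list was not tested.

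**Figure D4:**
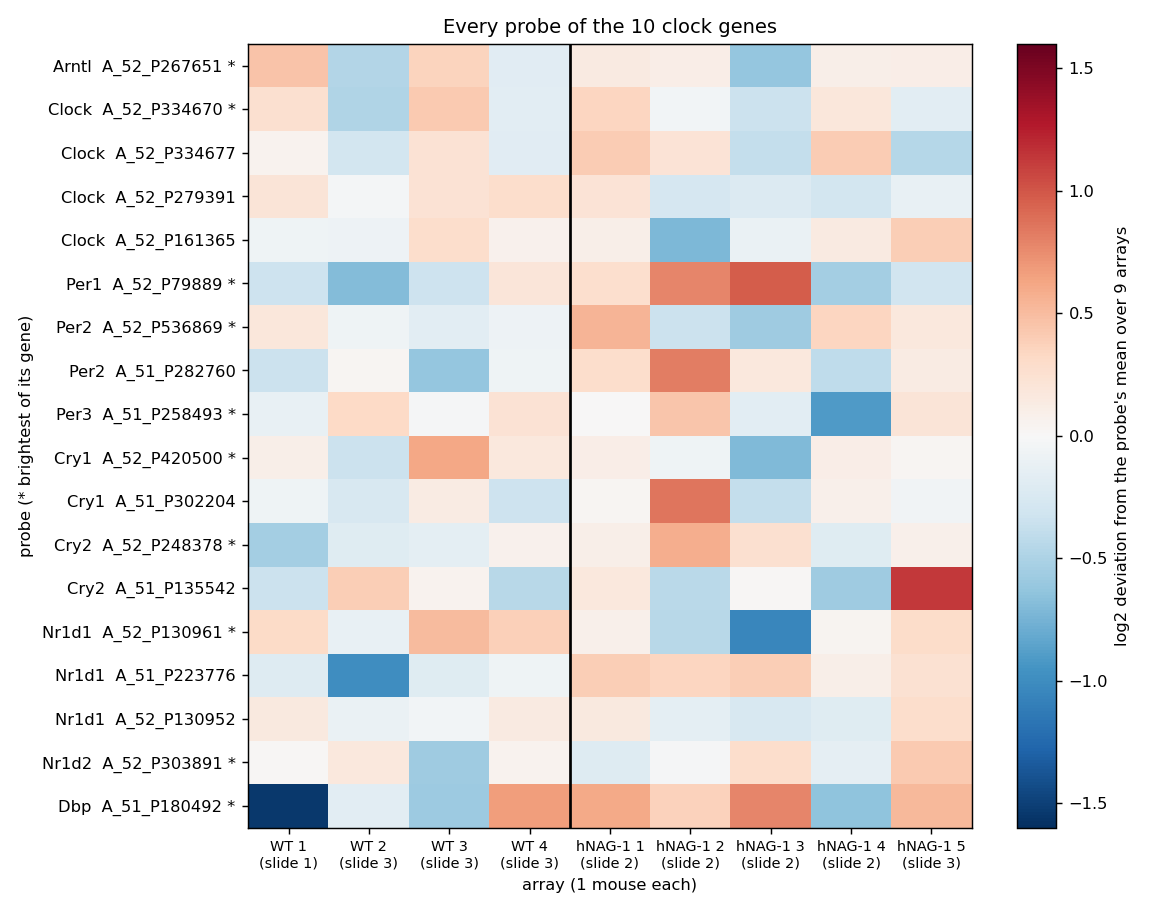
Log2 deviation of each of the 18 clock gene probes (rows) from its mean over the 9 arrays (columns), with red above and blue below the mean. The Dbp row runs from -1.54 in WT 1 to 0.78 in hNAG-1 3, and the hNAG-1 3 column has low Arntl and Cry1 beside high Per1 and Dbp.

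Phase relations were compared over the 9 single glands as correlations of log2 values among the 10 genes, 45 pairs in all. By Pearson's r, 10 pairs had an unadjusted exact permutation p below 0.05, and 0 had an adjusted one. By Spearman's rho these counts were 7 and 0.

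Arntl and Dbp ran in opposite directions, but not beyond the test. Their r was -0.59 (exact permutation p = 0.0986, adjusted over 45 pairs 0.341) and rho was -0.57 (p = 0.121, adjusted 0.452). The 2 glands farthest from the median of Arntl were WT 2 and hNAG-1 3, and without them r was -0.79 (exact permutation p = 0.0375). With each genotype centred r was -0.61 (p = 0.118 by permutation within genotype), and with each slide centred it was -0.39 (p = 0.368 by permutation within slide). The highest Dbp, 9688, was in hNAG-1 3 with the lowest Arntl, 908, and the lowest Dbp, 1932, was in WT 1 with the highest Arntl, 1914. Of the 23088 other probes well above background on all arrays, 3.51% had an r with Arntl as low as that of Dbp, where the median was 0.15 and the 5th percentile -0.53.

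Arntl showed no clear relation to the Per genes. Against Per1, r was -0.32 (exact permutation p = 0.394, adjusted 0.536) and rho -0.10 (p = 0.81, adjusted 0.889). Without WT 2 and hNAG-1 3 r was -0.39, and with each slide centred it was -0.29. The relation depended on single glands: leaving out 1 gland at a time gave r from -0.69 without WT 2 to 0.13 without hNAG-1 3. WT 2 had low Arntl and the lowest Per1, 1700, and hNAG-1 3 had the lowest Arntl and the highest Per1, 5370. Against Per2, r was 0.52 with the brighter probe (exact permutation p = 0.151, adjusted 0.357, rho = 0.37, p = 0.336, adjusted 0.702) and -0.31 with the other. Without the same 2 glands the first was 0.070. Against Per3, r was -0.14 (exact permutation p = 0.716, adjusted 0.749, rho = -0.067, p = 0.88, adjusted 0.90), with -0.18 without those glands.

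Arntl ran together with Clock, Cry1 and the brightest Nr1d1 probe. With Clock, r was 0.86 (exact permutation p = 0.0022, adjusted 0.0522) and rho 0.85 (p = 0.00607, adjusted 0.0683), with r = 0.72 without WT 2 and hNAG-1 3 and 0.89 with each slide centred. The other Clock probes had r of 0.62, 0.35 and 0.17 with Arntl, as descriptions. Among the other probes of the array, 0.355% had an r with Arntl at or above this one. With Cry1, r was 0.82 (exact permutation p = 0.0069, adjusted 0.0541) but rho 0.53 (p = 0.148, adjusted 0.511), and without the same 2 glands r was 0.34, so the relation rested on them, while with each slide centred it was 0.93 (permutation p = 0.0156, adjusted 0.117). The second Cry1 probe had r = 0.50 with Arntl and r = 0.30 with the first, as descriptions. With Nr1d1, r was 0.68 (exact permutation p = 0.0402, adjusted 0.181, rho = 0.57, p = 0.121, adjusted 0.452), which also rested on these glands (r = 0.17 without them, and 0.85 with each slide centred, permutation p = 0.0156, adjusted 0.117). With Nr1d2, r was -0.56 (exact permutation p = 0.12, adjusted 0.357, rho = -0.62, p = 0.0857, adjusted 0.429). A_51_P223776, the Nr1d1 probe that separated the genotypes, had r = 0.16 with Arntl and r = 0.70 with Per1, as descriptions.

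**Figure D5:**
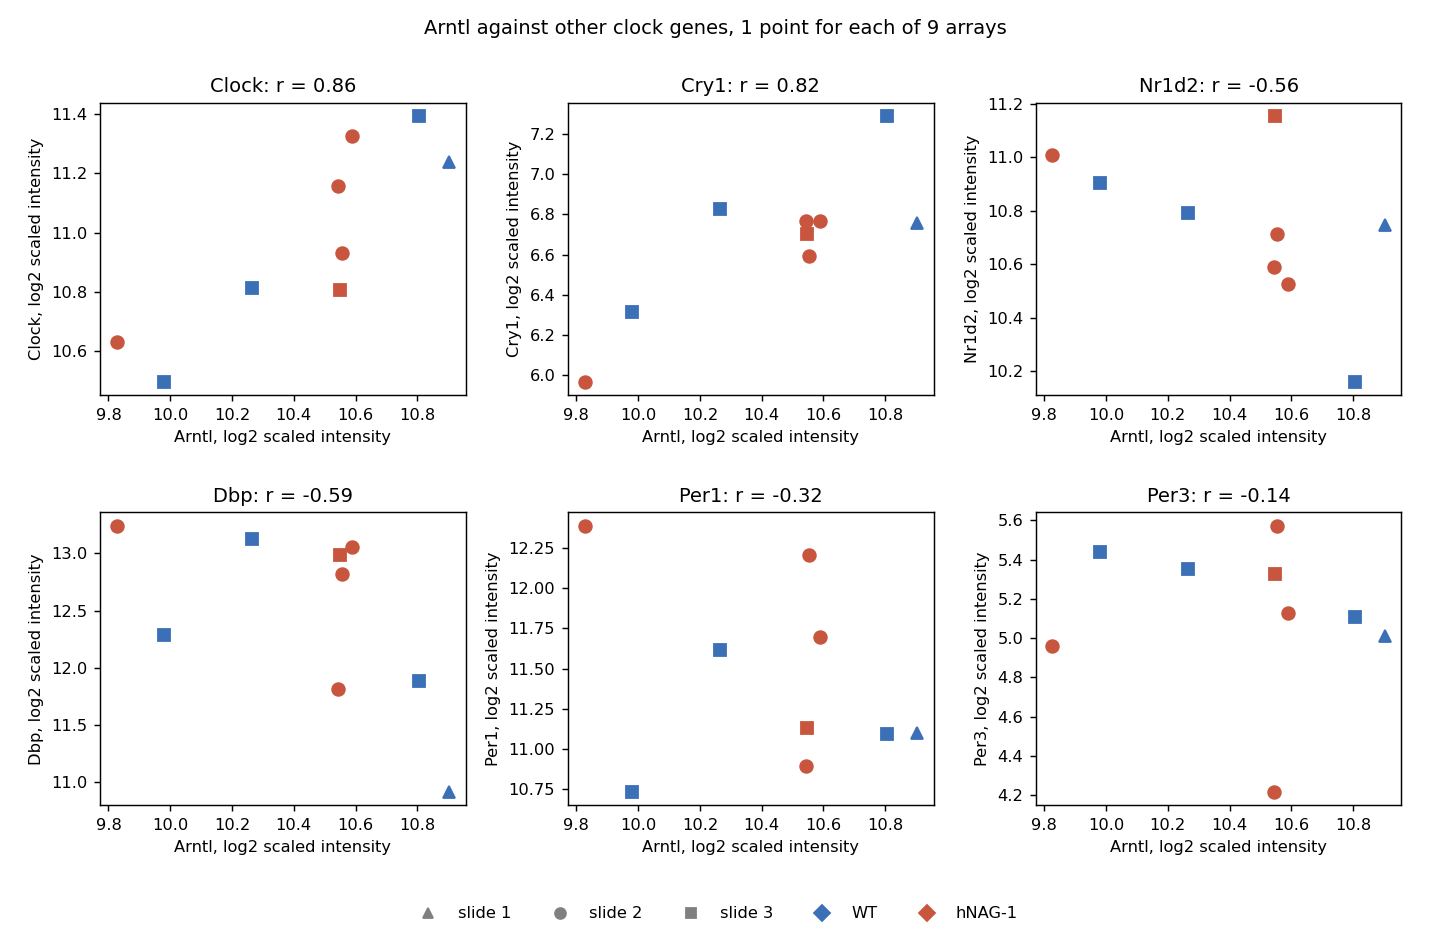
Log2 scaled intensity of Arntl (horizontal) against Clock, Cry1, Nr1d2, Dbp, Per1 and Per3 (vertical), with 1 point per gland, colour for genotype and symbol for slide. Clock and Cry1 rise with Arntl (r = 0.86 and 0.82), Dbp and Nr1d2 tend to fall (r = -0.59 and -0.56), and Per1 and Per3 show no trend (r = -0.32 and -0.14).

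The largest r of all 45 pairs was that of Cry1 with the brightest Nr1d1 probe (r = 0.87, exact permutation p = 0.00232, adjusted 0.0522, rho = 0.85, p = 0.00607, adjusted 0.0683). It was 0.60 without the 2 glands farthest from the median of Cry1. Cry1 also ran with Clock (r = 0.78, exact permutation p = 0.00841, adjusted 0.0541, rho = 0.77, p = 0.0214, adjusted 0.193). It ran against Nr1d2 (r = -0.73, exact permutation p = 0.0318, adjusted 0.179, rho = -0.68, p = 0.0503, adjusted 0.283). Cry1 with Clock had r = 0.63 without the 2 glands farthest from the median of Clock. Cry1 with Nr1d2 had r = -0.32 without the 2 farthest from the median of Cry1. Clock and Nr1d2 ran opposite to each other (r = -0.80, exact permutation p = 0.00757, adjusted 0.0541, rho = -0.88, p = 0.00308, adjusted 0.0683), and r was -0.79 without the 2 glands farthest from the median of Clock and -0.85 with each slide centred. Among Per1, Cry2 and Dbp, r was 0.79 for Per1 with Cry2 (exact permutation p = 0.00802, adjusted 0.0541, rho = 0.87, p = 0.00451, adjusted 0.0683), 0.81 for Cry2 with Dbp (p = 0.00689, adjusted 0.0541, rho = 0.73, p = 0.0311, adjusted 0.20) and 0.63 for Per1 with Dbp (p = 0.0685, adjusted 0.28, rho = 0.73, p = 0.0311, adjusted 0.20). Without the 2 glands farthest from the median of Per1, Per1 had r = 0.56 with Cry2 and 0.58 with Dbp. Cry2 with Dbp had r = 0.93 without the 2 farthest from the median of Cry2. With each slide centred, r was 0.83, 0.67 and 0.78 in the order first given (permutation p = 0.0451, 0.0955 and 0.0434, adjusted 0.203, 0.323 and 0.203). With each slide centred and arrays permuted within slides, 2 of the 45 pairs passed after adjustment, Clock with Cry1 (r = 0.95, permutation p = 0.00174, adjusted 0.0391) and Cry1 with the brightest Nr1d1 probe (r = 0.90, permutation p = 0.00174, adjusted 0.0391). Centring takes WT 1, the only array of slide 1, out of these values. The p of 0.00174 is the smallest that the 576 pairings within slides can give. With each genotype centred, 10 pairs had an unadjusted p below 0.05 and 0 an adjusted one.

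The genes whose profile over the 9 arrays was most like that of Arntl, by Pearson's r among probes well above background on all arrays, were Prpf4b (0.97), Sybl1 (0.97), Wdr78 (0.96), Canx (0.96) and 2510042P03Rik (0.96). Those most opposed were Rela (-0.92), Rest (-0.92), Mapk12 (-0.91), Iqsec1 (-0.90) and Tln1 (-0.90). None of these is a clock gene by the lists used, and 5 such values at each end were taken from 23088 probes.

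The rest of the pathway was read from lists of genes by their brightest probe, beside the 5.6% of all probes that passed an unadjusted limma p of 0.05. Of 22 other clock genes, 15 had log2 differences above 0 (median 0.12, and 0.14 with slide as a block), 1 passed higher and 0 lower. It was Ciart, a repressor of CLOCK and BMAL1, at 13.9, 23.7, 38.1 and 33.1 in WT 1 to 4 and 49.1, 52.2, 42, 61.5 and 36.7 in hNAG-1 1 to 5 (log2 difference 0.91, SE 0.30, exact permutation p = 0.0159, limma adjusted p 0.661). All hNAG-1 glands but hNAG-1 5 exceeded the WT glands, and on slide 3 that gland lay between WT 4 and WT 3, with a log2 difference of 0.24 with slide as a block. Its probe cleared background on 3 of the 4 WT and all hNAG-1 arrays. The difference ran from 0.35 to 1.20 under other background corrections and scalings. Among those above background on all arrays, Bhlhe40 was farthest up (0.50, SE 0.24) and Bhlhe41 farthest down (-0.31, SE 0.36). The slide block turned the signs of both, to -0.076 and 0.64.

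Of 18 clock output genes, 11 had log2 differences above 0 (median 0.13, and 0.002 with slide as a block), 2 passed higher and 0 lower. Usp2, a deubiquitinase gene driven by the clock, measured 420, 441, 406 and 386 in WT 1 to 4 and 517, 605, 556, 668 and 671 in hNAG-1 1 to 5. Every hNAG-1 gland exceeded every WT gland (log2 difference 0.54, SE 0.14, exact permutation p = 0.00794, limma adjusted p 0.661). The slide block gave 0.71, a value that rests on hNAG-1 5 as the single hNAG-1 gland of slide 3, and leaving out 1 gland at a time gave 0.50 to 0.59. Pim3, a kinase gene, had a log2 difference of 0.85 (SE 0.33), and of 0.017 with slide as a block. It no longer passed when WT 1, WT 2, WT 3, hNAG-1 2 or hNAG-1 3 was left out. Rgs16 was farthest down (-0.88, SE 0.45), without passing.

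Glucocorticoids and temperature also act on clock genes, and their targets, with immediate early genes, were read in the same way. Of 12 glucocorticoid-induced genes measured, 9 had log2 differences above 0 (median 0.27, and 0.25 with slide as a block), 2 passed higher and 1 lower. They were Klf9 (0.52, SE 0.17; 0.44 with slide as a block), in which the genotypes did not overlap, Ddit4 (0.44, SE 0.19; 0.21 with the block), which was lost without any single gland other than WT 2 and hNAG-1 5, and Pdk4, which was lower (-1.11, SE 0.38) but 0.26 with slide as a block. Fkbp5, at 0.57 (SE 0.46), was farthest up without passing. Of 12 immediate early genes, 6 had log2 differences above 0 (median -0.032, and -0.34 with slide as a block), and Ier2 passed higher (0.43, SE 0.15; 0.32 with the block), again without overlap, but not when WT 1 was left out. Atf3 (0.45, SE 0.34) and Arc (-0.74, SE 0.38) were at the ends of that list. None of 9 temperature-regulated rhythmic genes passed an unadjusted limma p of 0.05 (median 0.094, and 0.20 with slide as a block), from Cirbp at -0.20 (SE 0.32) to Hspb1 at 0.48 (SE 0.28). No gene of these lists passed after adjustment over all probes by limma.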

How the data were processed

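Per the labels, 500 ng of total RNA from each gland was labelled with Cy3 and hybridised to Agilent Whole Mouse Genome arrays, 1 array per gland. The authors deposited spot intensities on a linear scale, background-subtracted and processed by Feature Extraction 9.5, of which the processed green signal was used. The 75th percentile of each array (533 to 1185) was taken over the 43379 spots left after control spots were removed. Repeat spots of a probe were averaged. The averages were divided by their array's percentile and multiplied by 797, the geometric mean of the percentiles. They were then set to a floor of 1 and put on the log2 scale. Genotypes were compared with lmFit and eBayes in limma 3.58.1 (R 4.3.3) over all 41174 probes, with Benjamini-Hochberg adjustment, and by exact permutation over the 126 splits of the arrays. Differences were also fitted with slide as a block. Correlations used all 362880 pairings of 9 arrays, or the 576 within slides. The fits were tested on simulated data with independent noise and no slide effect, which cannot show how slide bears on the results. The clock genes and gene lists were chosen with earlier results of these data known. Named list genes passed an unadjusted p of 0.05 or changed most among those well above background on all 9 arrays. Of 112 listed genes, 110 were matched by the gene name on the array or by the RefSeq symbol of the probe's transcript. Nothing in the sources says that the dams were unrelated, and the p-values measure only the spread between these arrays, whose number limits the precision. The relations with marker lists, and those of the dimmer Nr1d1 and Per2 probes with Arntl, were added after the data were seen. The hour of collection is not given in the sources used here. Probe positions on build mm7 came from the scanner files.

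Besides those named in the text, the lists held markers of luminal epithelium (median log2 difference 0.12), endothelium (0.24), macrophages (-0.10) and lymph node lymphocytes (-1.30), which were 0.11, -0.24, -0.44 and -0.91 with slide as a block.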

Additional observations from a re-analysis of the deposited data

Results flagged for a closer look

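In 3 of 36 groups of a probe's values within a genotype, the lowest gland lay far from the others for a group of that size, and chance flags about 1 in 20 groups (5%). Arntl measured 908 in hNAG-1 3, and the gap to the next hNAG-1 gland was 0.94 of the whole hNAG-1 range on the log2 scale. Cry1 (A_52_P420500) measured 62.4 in the same gland, with a gap of 0.78 of the range. Nr1d1 (A_51_P223776) measured 192 in WT 2, with a gap of 0.86 of the range, and this was the gland with the highest lymphocyte marker signal. The first pair came from a single gland that also had the highest Dbp and Per1 and the lowest brightest Nr1d1 probe, so these values are not separate occurrences.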

How the results depend on the processing

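The count of clock probes with an unadjusted limma p under 0.05 was 1. It was 2 with normexp background correction, 4 with quantile normalization, 3 with median scaling, 0 without scaling, 2 with a floor of 20, 4 with array weights and 2 by the methods' ANOVA. Over all 41174 probes the count was 2307, and in these settings, in the same order, 1058, 2619, 3608, 2066, 2001, 6272 and 1983. Leaving out 1 gland at a time gave 1 to 5 clock probes, and 1163 to 5924 of all probes. The clock count was 5 without hNAG-1 4 (Nr1d1 A_51_P223776, Dbp, Per1, Per2 A_51_P282760 and Cry2), where 1574 of all probes passed. It was 2 without WT 2, WT 4 or hNAG-1 1, with 1781, 1709 and 2815 of all probes. The Nr1d1 probe lost its unadjusted p under 0.05 without scaling, with slide as a fixed block and within slide 3. No clock probe passed after adjustment in any of these settings.

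Scaling moved all probes together: the median log2 difference over the array was -0.018, but 0.20 with median scaling and -0.16 without scaling. Median scaling turned Arntl to 0.14, Clock to 0.20 and Per3 to 0.028. Per2 was -0.083 without scaling. Per3 was 0.084 with normexp and 0.17 with quantile normalization. With slide as a fixed block or slide 3 alone, Arntl was 0.20, Per1 -0.019, Per3 0.030 and Nr1d1 (brightest probe) 0.041, where the all-probe median was 0.19. The mean over probes gave 0.037 for Nr1d1. Leaving out glands gave -0.25 to 0.071 for Arntl, -0.18 to 0.12 for Clock, -0.066 to 0.21 for Per2, -0.32 to 0.020 for Per3, -0.40 to -0.075 for Cry1, -0.61 to -0.27 for Nr1d1 and -0.015 to 0.23 for Nr1d2. Cry2 and Dbp kept their direction in every setting, and Cry1 did so too, but the mean over its probes was -0.0017.

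The r of Arntl with Per1 was 0.13 with median scaling, and -0.69 to 0.13 with 1 gland left out. That with Per3 was 0.48 without scaling and 0.45 with normexp, and -0.32 to 0.0026 with 1 gland left out. That with Per2 was -0.31 for the other probe. Arntl with Dbp stayed below 0 (-0.72 to -0.39 with 1 gland left out). The causes were not tested.

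The replicate numbers in the labels did not pair the glands: same-numbered glands had correlations of their deviations of 0.28, -0.20, -0.14 and -0.31. The replicate block also takes hNAG-1 5, which has no WT partner, out of the contrast. With it 5447 of all probes against 2307 and 1 clock probe had an unadjusted p under 0.05, and Clock was 0.027. Leaving out hNAG-1 5 alone gave 5924 probes and the same value for Clock, so the rise cannot be put down to the block. Signal over background limits Per3 and the dim probes of Clock and Cry2.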
